A study of Mus musculus with 6 samples.

Results

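The 10 antiviral interferon-stimulated genes Mx1, Mx2, Ifit1, Ifit3, Ifi44, Rsad2, Usp18, Isg15, Rtp4 and Bst2 were examined in splenic CD8+ T cells of mice after hematopoietic stem cell transplantation (HSCT). They were chosen by name, with earlier results of these data known, and all 10 were among the 14750 genes of the deposited table, each with 1 row. RNA of 6 libraries had been sequenced, 3 labelled syn-HSCT, in which BALB/c donor cells went into BALB/c hosts, and 3 labelled allo-HSCT, in which C57BL/6 donor cells went into BALB/c hosts. Every library carried the strain label BALB/c and came from spleen cells isolated with a kit for CD8+ T cells. Titles of the libraries labelled syn-HSCT began with CD8_A and those of the libraries labelled allo-HSCT with CD8_S. The sources used here give no age, conditioning of the hosts, time after transplantation or number of animals behind a group. P-values therefore measure only how far these libraries spread, and that spread may be technical. The comparison asks which genes differ between allogeneic and syngeneic CD8+ T cells in the setting of graft-versus-host disease.

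Type I interferons bind the receptor made of IFNAR1 and IFNAR2, whose kinases JAK1 and TYK2 phosphorylate STAT proteins. These join IRF9 in the complex ISGF3, which binds the interferon-stimulated response element in promoters and switches on antiviral genes. In T cells the same signal is also known to shape expansion and survival, and USP18 and SOCS1 limit it.

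The library names call for care before any direction is read. H2-Ea-ps, an MHC class II gene that BALB/c cells transcribe and C57BL/6 cells do not, was at 1909 to 2007 FPKM (fragments per kilobase of exon, scaled to library size) in the libraries labelled allo-HSCT and at 3.66 to 6.66 FPKM in those labelled syn-HSCT. The difference was 17.6-fold in the same direction for Gbp2b, known as inducible in BALB/c mice. Lower in the libraries labelled allo-HSCT were Ly6a, stronger on T cells of C57BL/6 mice (11.6-fold), and Apobec3, whose C57BL/6 allele is the stronger (5.85-fold). These genes ran against the donor strain of the labels in all 6 libraries, while the labels name BALB/c hosts in both groups. Whether the labels were exchanged was not tested, and if they were, every direction below would turn. The groups are therefore called allo-labelled and syn-labelled below, and every direction is between libraries as labelled. H2-Eb1, which pairs with the product of H2-Ea-ps, stood 28.2-fold above the syn-labelled level. The totals that scale the FPKM values, as recovered from those values, came to between 15154000 and 18715000 fragments per library, and the ranges of the groups overlapped.

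Promoter sequences are shown first because the response element is what these genes are known to share. RefSeq promoter windows (GRCm38.p6, 250 bases before to 50 after a start) were matched for 6 of the 10 genes, namely Isg15, Bst2, Rsad2, Ifit3, Ifit1 and Ifi44, and not for Mx1, Mx2, Usp18 and Rtp4. The core of the response element, GAAA, any 2 bases and GAAA again, was searched on both strands. It was present in 5 of these 6 windows (83.3%), in 37.1% of the 35 windowed genes in the list of other classic interferon-stimulated genes, and in 3.99% of the 9466 genes of the table that had a window. Stretches around the matches, all before the start, are given 5′ to 3′ on the strand of the gene, with the matched bases in capitals. They come from chr4:156200855-156200916 for Isg15 (minus strand), chr8:71537567-71537622 for Bst2 (minus strand), chr12:26456543-26456592 for Rsad2 (minus strand), chr19:34583353-34583436 for Ifit3 (plus strand) and chr19:34640765-34640833 for Ifit1 (plus strand).
Isg15: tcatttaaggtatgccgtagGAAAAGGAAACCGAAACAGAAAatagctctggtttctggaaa
Bst2: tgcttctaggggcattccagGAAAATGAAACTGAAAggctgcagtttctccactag
Rsad2: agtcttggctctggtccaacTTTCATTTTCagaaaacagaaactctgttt
Ifit3: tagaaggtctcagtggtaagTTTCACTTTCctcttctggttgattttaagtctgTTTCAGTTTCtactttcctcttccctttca
Ifit1: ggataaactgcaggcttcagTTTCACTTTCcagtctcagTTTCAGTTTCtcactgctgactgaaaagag

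In Isg15 the capitals hold 3 overlapping matches on the gene's own strand, ending 57 bases before the start, and in Bst2 they hold 2. In Ifit3, Ifit1 and Rsad2 the matches lay on the other strand, so they read as TTTC pairs. The gamma-activated site TTCNNNGAA, an element of promoters that respond to interferon gamma, was found only in Bst2 among the 6 windows, where it overlaps the first response element match; 8.46% of the windowed genes of the table held it. No match of either motif was in the Ifi44 window, which says only that these letters are not in it.

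**Figure D1:**
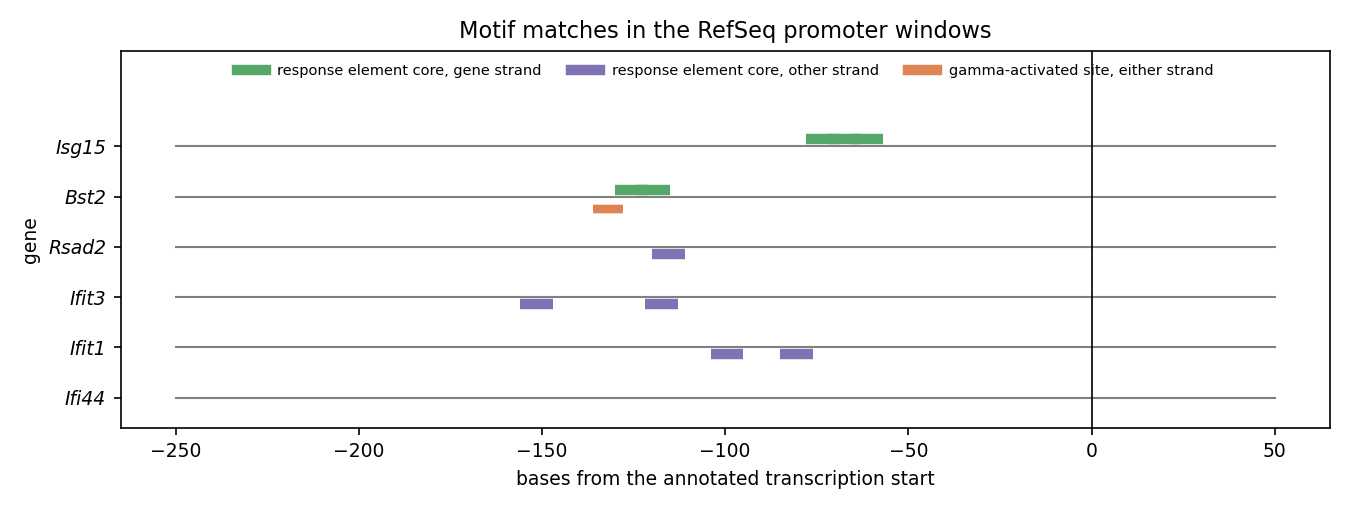
Matches of the response element core and of the gamma-activated site along the promoter windows of 6 genes; the x axis is the distance in bases from the annotated start, and each bar is 1 match. Of the 6 windows, 5 hold the core, all within 156 bases before the start, and Isg15 has 3 overlapping matches.

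All 10 antiviral genes were higher in the allo-labelled libraries by limma on log2(FPKM + 1), called at a Benjamini-Hochberg adjusted p under 0.05, with folds of mean FPKM from 1.68 for Bst2 to 46.3 for Ifi44. Of the 12404 genes tested, 34.7% were called higher and 33.0% lower, 67.6% in either direction, so a call by itself was common. At Ifi44, Mx2 and Rsad2 every syn-labelled library was under 1 FPKM; these 3 passed the filter on low values only through the other group, and no count over all 10 is read as support. The other 7 were at 1 FPKM or more in all 6 libraries, and all 7 were called higher, where 31.1% of the 10209 genes of that kind were. Their median difference was 1.05 on the log2(FPKM + 1) scale, beside -0.03 for those 10209 genes. Because the genes were chosen with earlier results of these data known, these shares and medians describe them and are not read as support.

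**Figure D2:**
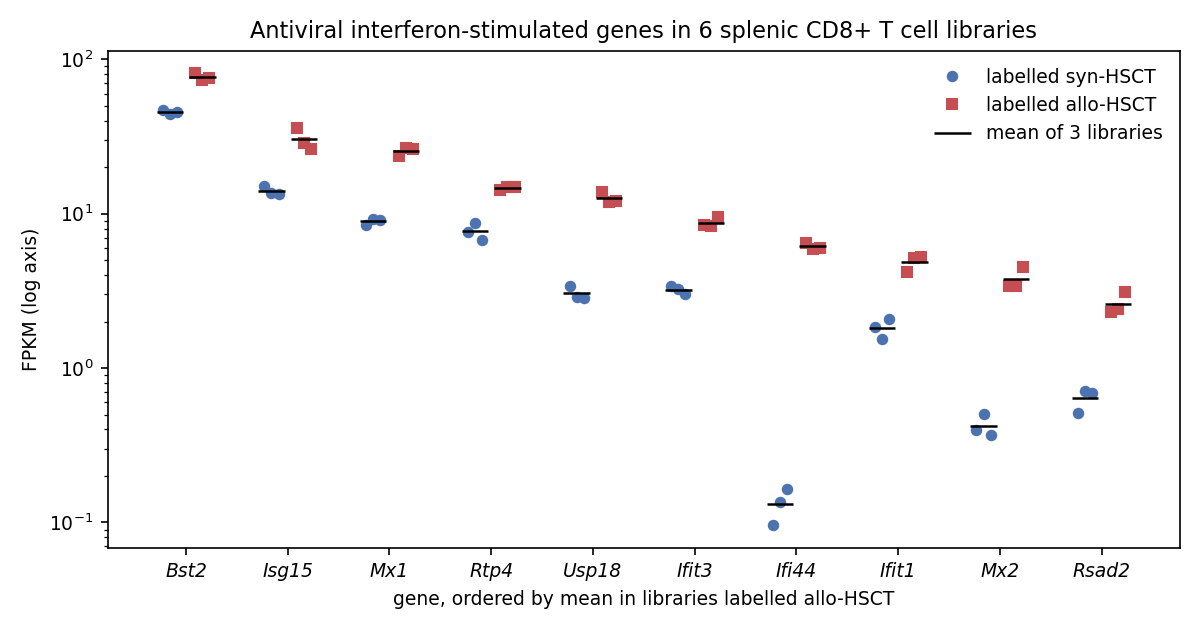
FPKM of each antiviral gene in every library on a log axis, 3 libraries per group, with the group mean as a line. At each of the 10 genes the 3 libraries labelled allo-HSCT lie above the 3 syn-labelled, an order that 37.0% of all genes tested show. Ifi44, Mx2 and Rsad2 passed the filter on low values only through the libraries labelled allo-HSCT. The count of 10 is therefore not read as support.

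The MX genes encode dynamin-like GTPases that trap viral ribonucleoproteins. Mouse Mx1 acts in the nucleus against influenza virus, and both BALB/c and C57BL/6 mice carry a defective allele. Mx1 was at 23.5, 26.7 and 26.1 FPKM in allo-labelled replicates 1 to 3 and at 8.38, 9.26 and 9.16 FPKM in syn-labelled replicates 1 to 3. The lowest library of the former group was thus well above the highest of the latter, and the fold of the means was 2.84 (25.4 FPKM ± 1.72 against 8.93 ± 0.478, SD, n = 3 each). The log2 difference was 1.41 (95% confidence interval 1.27 to 1.55, limma adjusted p = 1.98e-06).

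Mx2, which GENCODE vM21 annotates as a polymorphic pseudogene in the reference strain, was much weaker. It was at 3.38, 3.42 and 4.51 FPKM in the allo-labelled libraries and at 0.398, 0.505 and 0.370 FPKM in the syn-labelled ones. The fold was 8.89 and the log2(FPKM + 1) difference 1.74 ± 0.11 (SE, limma adjusted p = 1.38e-05). The syn-labelled values rest on 22 to 33 recovered fragments per library. Mx1 and Mx2 lie 72.4 kb apart on chromosome 16 (GRCm38, 97447035 to 97462907 and 97535308 to 97560900) on opposite strands. The ratio of Mx2 to Mx1 within a library was 0.128 to 0.173 in the allo-labelled libraries and 0.0404 to 0.0546 in the syn-labelled ones. The ranges did not overlap; a two-sided exact permutation test gave p = 0.10, the smallest that 3 libraries against 3 allow.

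IFIT proteins bind viral RNA, IFIT1 by its cap structure, and IFIT3 stabilises IFIT1. Ifit1 was at 4.16, 5.16 and 5.22 FPKM in the allo-labelled libraries and at 1.84, 1.54 and 2.09 FPKM in the syn-labelled ones. Ifit3 was at 8.43, 8.27 and 9.45 FPKM against 3.41, 3.27 and 3.00 FPKM in the same order. Neither gene overlapped between groups, and their folds were alike, 2.65 for Ifit1 and 2.70 for Ifit3, with limma adjusted p of 0.000143 and 7.69e-06. The ratio of Ifit3 to Ifit1 averaged 1.81 ± 0.211 and 1.80 ± 0.345 (SD, n = 3 each) and its ranges overlapped.

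Other genes of the cluster on chromosome 19 were less even. Ifit2, whose product also binds viral RNA, was at 13.3 FPKM ± 1.17 against 10.1 ± 0.398 (SD, n = 3 each), only 1.31-fold higher (limma adjusted p = 0.00284). Ifit1bl1 was 1.76-fold higher (limma adjusted p = 0.000152). Ifit3b, a near-identical copy 19.2 kb from Ifit3, was at 2.22 FPKM ± 0.496 against 0.471 ± 0.325 (SD, n = 3 each); reads of this pair may be split between them, so both levels are uncertain.

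Ifi44, a cytoplasmic protein gene induced by type I interferon, showed the widest gap. It was at 6.5, 5.88 and 6.01 FPKM in the allo-labelled libraries and at 0.0959, 0.135 and 0.166 FPKM in the syn-labelled ones. The syn-labelled levels were near 0 and rest on 9, 15 and 19 recovered fragments. The exact 95% Poisson interval of the lowest of these was 4.12 to 17.1 fragments, which covers counting error only. The fold was 46.3 and the log2(FPKM + 1) difference 2.65 ± 0.07 (SE, limma adjusted p = 2.83e-07). On recovered fragments, without the added 1, limma's voom put the difference at 5.49 for Ifi44, 3.12 for Mx2 and 2.0 for Rsad2, so the log2(FPKM + 1) scale understates these 3.

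Ifi44l, the paralog that lies 8.78 kb from Ifi44 on chromosome 3, was at 17.3 FPKM ± 0.356 against 0.166 ± 0.0262 (SD, n = 3 each), a 104-fold gap and the smallest p in the list of other classic interferon-stimulated genes (limma adjusted p = 1.98e-08). The syn-labelled values of Ifi44l, 0.142, 0.161 and 0.194 FPKM over 1376 exonic bases, were near 0. They rest on even fewer fragments than those of Ifi44, so the fold and the syn-labelled ratio below are uncertain. Reads may also be split between these similar genes. The ratio of Ifi44 to Ifi44l was 0.343 to 0.367 in the allo-labelled libraries and 0.674 to 0.853 in the syn-labelled ones (two-sided exact permutation test, p = 0.10, the smallest possible).

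Rsad2 encodes viperin, a radical SAM enzyme that makes a chain-terminating nucleotide from CTP. It was at 2.30, 2.41 and 3.12 FPKM in the allo-labelled libraries and at 0.512, 0.715 and 0.690 FPKM in the syn-labelled ones, the lowest of the 10 genes in the former group. The fold was 4.08 and the log2(FPKM + 1) difference 1.13 ± 0.11 (SE, limma adjusted p = 0.000117). Its neighbour Cmpk2, 12.8 kb away on chromosome 12 and encoding a mitochondrial kinase that supplies CTP, did not follow. Cmpk2 was at 4.68, 4.72 and 4.45 FPKM against 5.65, 5.43 and 4.71 FPKM, a log2 difference of -0.16 that was not called (limma adjusted p = 0.0946). Cmpk2 was called lower after quantile normalization (-0.30) and without syn-labelled replicate 3 (-0.22), and in no other alternative. The ratio of Rsad2 to Cmpk2 was 0.491 to 0.701 in the allo-labelled libraries and 0.0907 to 0.146 in the syn-labelled ones, without overlap (two-sided exact permutation test, p = 0.10, the smallest possible).

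Isg15 encodes a ubiquitin-like modifier that is joined to newly made proteins, and Usp18 the protease that removes it and also blocks the receptor chain IFNAR2. Isg15 was at 36.03, 28.8 and 26.4 FPKM in the allo-labelled libraries and at 15.03, 13.7 and 13.4 FPKM in the syn-labelled ones. It varied most among the more abundant genes, with a coefficient of variation of 16.6% in the allo-labelled libraries, yet the groups stayed apart. The fold was 2.17 and the log2(FPKM + 1) difference 1.05 (95% confidence interval 0.79 to 1.32, limma adjusted p = 0.000156).

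Usp18 was at 13.8, 11.9 and 12.1 FPKM in the allo-labelled libraries and at 3.42, 2.88 and 2.83 FPKM in the syn-labelled ones. Its 4.14-fold gap was wider than that of Isg15, and its log2(FPKM + 1) difference was 1.75 ± 0.08 (SE, limma adjusted p = 3.09e-06). The ratio of Isg15 to Usp18 was 2.18 to 2.60 in the allo-labelled libraries and 4.4 to 4.76 in the syn-labelled ones. The ranges did not overlap (two-sided exact permutation test, p = 0.10, the smallest possible). An antisense gene, Gm44148, shares 124 of the 2790 exonic bases of Usp18 and was at 0 to 2.71 FPKM; whether counting used strand was not given in the sources used here.

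The enzymes that attach ISG15 moved the same way. Uba7, the activating enzyme, was 1.61-fold higher, Ube2l6, the conjugating enzyme, 2.92-fold higher (12.5 FPKM ± 1.11 against 4.28 ± 0.722, SD, n = 3 each), and Herc6, the ligase of mice, 1.58-fold higher. All 5 genes of ISG15 conjugation, Isg15 and Usp18 included, were called higher (limma adjusted p at most 0.000156), as were 34.7% of all genes tested. The list median of 1.05 is the value of Isg15 itself. Count and median thus rest partly on the antiviral genes and are not read as support.

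Rtp4 encodes a chaperone that moves certain receptors to the cell surface and restrains some RNA viruses. It was at 14.2, 14.98 and 14.99 FPKM in the allo-labelled libraries and at 7.60, 8.72 and 6.77 FPKM in the syn-labelled ones. The groups were apart with a fold of 1.91 and a log2(FPKM + 1) difference of 0.86 ± 0.08 (SE, limma adjusted p = 9.72e-05). Bst2 encodes tetherin, which holds budding virions at the cell surface and is also a surface marker of mouse plasmacytoid dendritic cells.

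Bst2 was at 81.0, 73.7 and 75.4 FPKM in the allo-labelled libraries and at 46.7, 44.5 and 45.5 FPKM in the syn-labelled ones. It was the most abundant of the 10 genes in both groups and had the smallest gap, 1.68-fold (76.7 FPKM ± 3.85 against 45.6 ± 1.13, SD, n = 3 each; log2 difference 0.74, limma adjusted p = 5.98e-06).

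**Figure D3:**
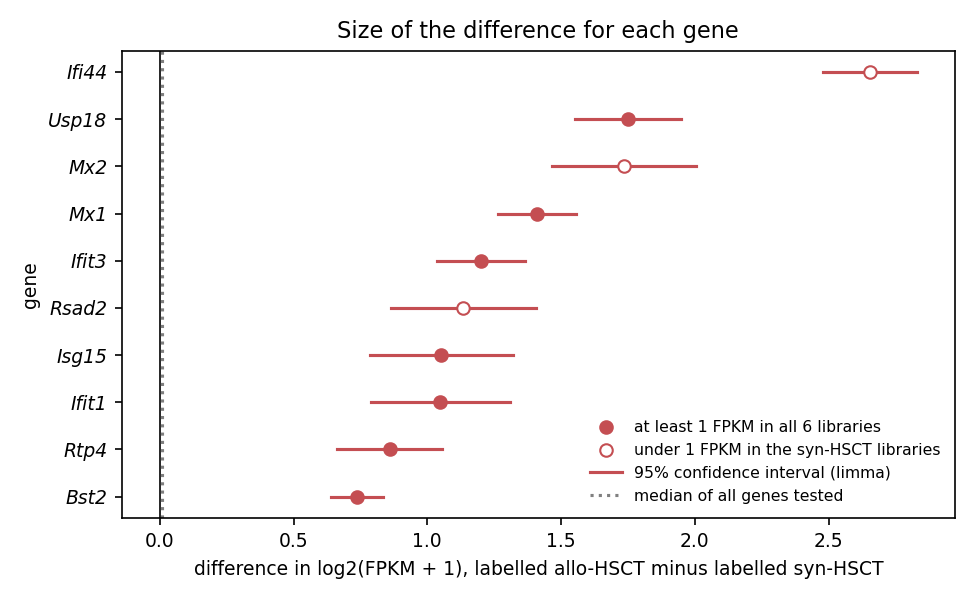
Difference in log2(FPKM + 1) between the groups for each antiviral gene, with limma's 95% confidence interval; open points are the 3 genes under 1 FPKM in every syn-labelled library. The differences run from 0.74 for Bst2 to 2.65 for Ifi44, and the dotted line marks the median of all genes tested, 0.01.

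The order of the levels per length was the same in both groups for the first 4 genes and for Mx2 in place 9, and differed elsewhere. In the allo-labelled libraries it ran Bst2, Isg15, Mx1, Rtp4, Usp18, Ifit3, Ifi44, Ifit1, Mx2 and Rsad2, and the libraries of Isg15 and Mx1, and of Ifit1 and Mx2, overlapped. In the syn-labelled ones it ran Bst2, Isg15, Mx1, Rtp4, Ifit3, Usp18, Ifit1, Rsad2, Mx2 and Ifi44, with overlap between Mx1 and Rtp4 and between Ifit3 and Usp18. Ifi44 thus stood in the seventh place in the former group and in the last in the latter. Summed over the 10 genes, the level was 181 to 193 FPKM in the allo-labelled libraries and 83.9 to 87.4 FPKM in the syn-labelled ones, a 2.17-fold difference.

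The libraries of a group were not ranked alike by these genes. Among the allo-labelled ones, replicate 1 was the highest library for 4 of the 10 genes (Ifi44, Usp18, Isg15 and Bst2) and the lowest for 5 (Mx1, Mx2, Ifit1, Rsad2 and Rtp4). Allo-labelled replicate 3 was the highest for 5. The median coefficient of variation was 7.95% in the allo-labelled libraries and 11.7% in the syn-labelled ones.

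The genes with profiles nearest to each antiviral gene were sought among the 7677 tested genes of at least 5 FPKM on average, by the root-mean-square distance of centred log2(FPKM + 1) values over the 6 libraries. Nearest to Bst2 were Slc29a3, Hid1 and Fam8a1 (0.0267 to 0.0304), and nearest to Mx1 were Adpgk, Fuca1 and Myadm (0.0377 to 0.0549). Usp18 lay nearest to Ccl5, Ifi30 and Treml2 (0.0715 to 0.0767), and Ifit3 to Dusp1, Ftl1 and Smurf1 (0.0484 to 0.0518). Nearest to Ifi44 were Rpl3-ps1, Grn and Tpm3-rs7 (0.0534 to 0.0626), to Ifit1 Klhl5, Asah1 and Gabbr1 (0.0679 to 0.0762), and to Isg15 Fam234a, Gm47015 and Foxo3 (0.0969 to 0.109). For Rtp4 they were Tnfrsf26, Htra2 and Foxj2 (0.0433 to 0.0648), for Rsad2 Hps5, Herc3 and Rnaset2a (0.0776 to 0.0937), and for Mx2 Pi4k2a, Pde1b and Fosb (0.0988 to 0.110). None of these neighbours was another of the 10 genes, of which Mx2, Ifit1, Ifi44 and Rsad2 were under that level and could not be named. The scale understates Ifi44, Mx2 and Rsad2, so their neighbours share the log2(FPKM + 1) difference and not the fold. Rpl3-ps1, nearest to Ifi44, was at 339.6 FPKM in the allo-labelled libraries and 50.95 FPKM in the syn-labelled ones, a smaller fold than that of Ifi44.

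Transcripts of other cell types stood beside all of these differences. Of 11 markers of plasmacytoid dendritic cells, 10 were higher and 1 (Runx2) lower in the allo-labelled libraries by limma, and their summed level was 217 to 219 FPKM against 41.4 to 44.8 FPKM. In the allo-labelled libraries most of that sum was Irf8, which other dendritic cells and macrophages also express. Without Irf8 the sums were at least 53.6 FPKM against at most 23.1 FPKM, and their fold went from 5.11 to 2.53. Siglech, a defining receptor of these cells, was at 9.62 FPKM ± 0.319 against 0.0277 ± 0.0171 (SD, n = 3 each), and Ly6d was at 0 in all 3 syn-labelled libraries. The 10 conventional dendritic cell markers summed to 1487 to 1583 FPKM against 120 to 128 FPKM, with all 9 tested higher and Cd209a at 0 in every syn-labelled library. H2-Ab1, a class II gene of all antigen-presenting cells, made up most of this sum in the allo-labelled libraries. Without H2-Ab1 the fold went from 12.5 to 5.84 (442 to 468 FPKM against 77.1 to 81.6 FPKM). The 12 macrophage and monocyte markers summed to 348 to 349 FPKM against 42.6 to 44.1 FPKM, with all 10 tested higher, and without the lysozyme gene Lyz2 the fold of these sums went from 8.08 to 3.44. The 12 neutrophil markers summed to 2011 to 2130 FPKM against 97.5 to 107 FPKM, with 11 higher and Elane not called.

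Erythroid markers were also higher, at 60.3 to 75.4 FPKM against 1.65 to 1.79 FPKM summed over 5 genes. B cell markers were low in both groups, at 12.8 to 14.01 FPKM against 9.38 to 9.79 FPKM over 3 genes of 7 listed, with Cd22 higher, Cd79b not called and Cd79a not tested; without Cd79b the fold of the sums went from 1.41 to 3.35. NK cell markers summed to 8.40 to 10.1 FPKM against 14.6 to 15.2 FPKM over 3 genes of 5, with Ncr1 and Klre1 higher and Klrb1c lower. Klrb1c alone set the direction of this sum: without it the sums were 7.85 to 9.48 FPKM against 3.20 to 4.10 FPKM. Transcripts of CD8 T cells were abundant in both groups but not equal. The list of 8 genes also holds Cd4, which CD8 T cells are not marked by. Of the 8, 2 were higher (Cd8a and Cd4), 5 lower and Cd8b1 was not called (490 FPKM ± 20.8 and 483 ± 9.38, SD, n = 3 each). Cd8a was 1.46-fold and Cd4, a marker of other T cells, 5.98-fold higher. Cd3g was 1.69-fold, Trac 1.61-fold, Cd3d 1.46-fold, Cd5 1.31-fold and Cd3e 1.12-fold lower in the allo-labelled libraries, and the list summed to 1406 to 1494 FPKM against 1608 to 1630 FPKM. The part of these other cells in the antiviral differences was not tested. Fewer cells of a type and less RNA per cell cannot be told apart in such bulk libraries, nor can the kind of transplant and the strain of the cells.

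**Figure D4:**
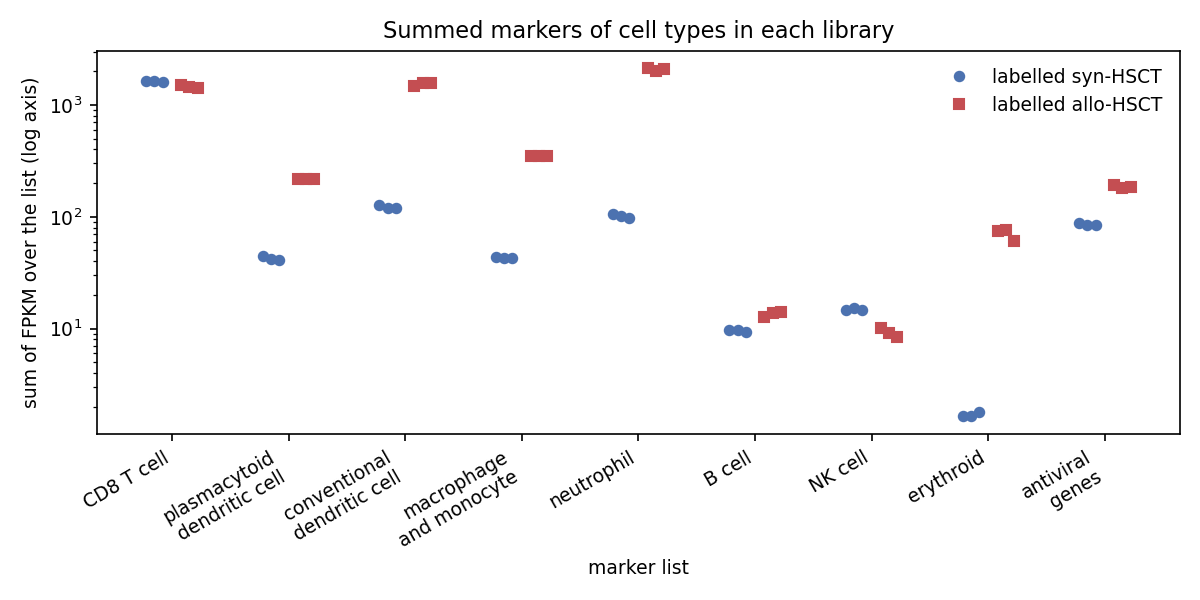
FPKM summed over each list of cell type markers, and over the 10 antiviral genes, in every library on a log axis. The dendritic cell, macrophage, neutrophil and erythroid sums are higher in the allo-labelled libraries, where the antiviral sum is 181 to 193 FPKM against 83.9 to 87.4 FPKM.

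Upstream of the antiviral genes, the receptor and its signalling chain were higher as well. Ifnar2 was at 28.1 FPKM ± 0.542 in the allo-labelled libraries and 6.55 ± 0.0894 in the syn-labelled ones (SD, n = 3 each), a 4.29-fold gap, while Ifnar1 was 1.47-fold higher (limma adjusted p = 4.14e-08 and 2.85e-05). The interferon genes Ifna1, Ifna2, Ifna4, Ifnb1 and Ifnk were looked for by symbol and were not among the genes of the table, so no level can be given. In the JAK-STAT and ISGF3 chain the kinases Jak1 and Tyk2 and the ISGF3 genes Stat2 and Irf9 were called higher. Stat2 was 1.95-fold higher (23.2 FPKM ± 0.50 against 11.9 ± 0.318, SD, n = 3 each), Tyk2 1.62-fold, Irf9 1.51-fold and Jak1 1.42-fold, with limma adjusted p of at most 1.69e-05.

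Of 7 interferon regulatory factors measured, 4 were higher, 1 lower and 2 not called, with a median of 0.47. Irf7, which amplifies type I interferon production, was 3.10-fold higher (44.0 FPKM ± 1.82 against 14.2 ± 0.148, SD, n = 3 each, limma adjusted p = 1.36e-07). Irf8 and Irf5, both strongly expressed in dendritic cells and macrophages, were 7.88-fold and 5.86-fold higher. Irf1 was 1.39-fold higher. Irf4, induced by T cell receptor signals, was at 4.66 FPKM ± 0.340 against 10.6 ± 0.424 (SD, n = 3 each) and so was 2.27-fold lower. Irf3, which is activated by phosphorylation, was at 23.8 against 23.7 FPKM, and Irf2 at 15.5 against 16.5 FPKM; Irf2 was called lower after TMM scaling (-0.10), on recovered fragments (-0.09) and without allo-labelled replicate 1 (-0.11).

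**Figure D5:**
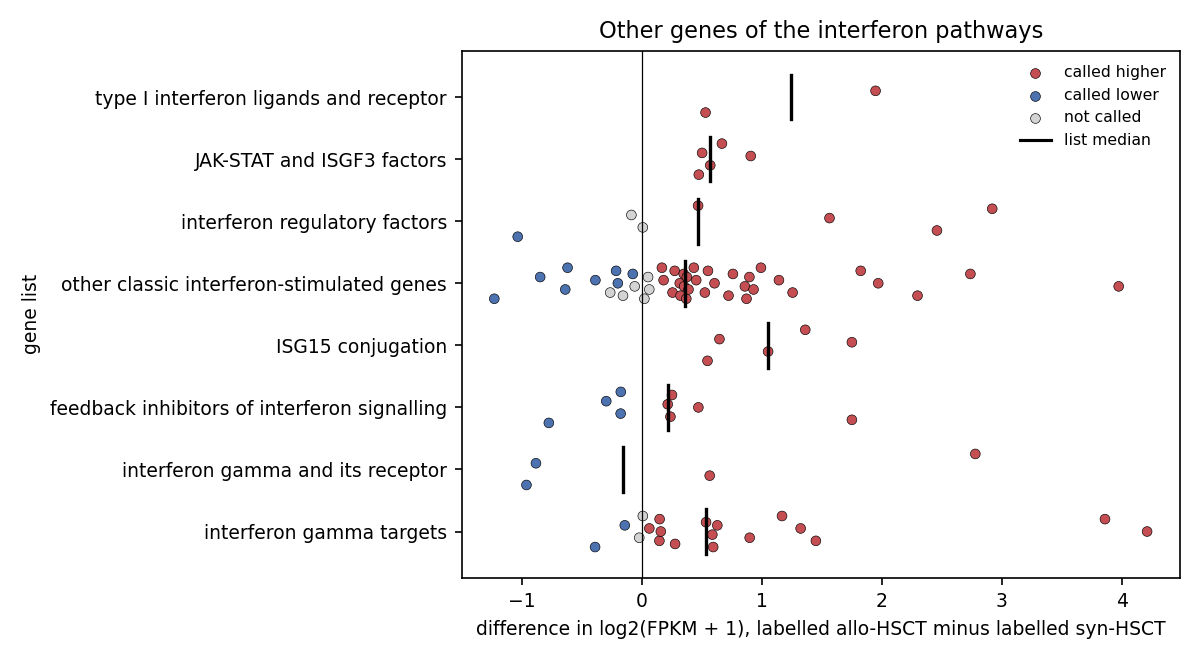
Difference in log2(FPKM + 1) for each tested gene of 8 interferon pathway lists, coloured by its call, with the list median as a line. The receptor, JAK-STAT and ISG15 conjugation lists hold only genes called higher. The list of other classic interferon-stimulated genes holds 30 called higher, 8 lower and 6 not called. Of all genes tested, 34.7% were called higher and 33.0% lower. Isg15 and Usp18 are in the conjugation list, and Usp18 is also among the inhibitors.

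The list of other classic interferon-stimulated genes was mixed. By limma, 30 of 44 tested were higher, 8 were lower and 6 had no call. Of all genes tested, 34.7% were called higher and 33.0% lower. The list median was 0.36, beside 0.01 for all genes tested. Some of those called higher, Ifi44l and Oasl1 among them, were under 1 FPKM in every syn-labelled library. They passed the filter on low values only through the other group, so the count is not read as support. Beside Ifi44l the smallest p belonged to Trim30a, a regulator of inflammatory signalling (2.44-fold, 69.5 FPKM ± 1.57 against 28.5 ± 1.04, SD, n = 3 each), Slfn5 of the Schlafen family (4.25-fold) and Oasl1, an OAS-like protein gene that restrains Irf7 translation (10.04-fold, 7.65 FPKM ± 0.524 against 0.762 ± 0.148, SD, n = 3 each).

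The 8 that were lower included abundant genes. Ly6e, a surface protein gene that blocks coronavirus entry, was at 179 FPKM ± 3.54 against 274 ± 6.57 and Epsti1 at 109 ± 3.89 against 170 ± 1.33 (SD, n = 3 each). Of the IFITM genes, whose products stop viral fusion, Ifitm1 was 1.83-fold and Ifitm2 2.48-fold lower while Ifitm3 was 1.54-fold higher. Ifih1, which encodes the RNA sensor MDA5, was 1.37-fold lower (limma adjusted p = 0.000608) and Ifi203 1.15-fold lower. Nmi and Plac8 had small differences of -0.21 and -0.07, and Plac8 turned to 0.04 after quantile normalization. Nmi was not called without replicate 2 or 3 of either group (limma adjusted p = 0.0534 to 0.0616), and Plac8 was not without any single library but syn-labelled replicate 3 (0.0636 to 0.098). The 6 not called were Isg20, Cmpk2, Lgals3bp, Parp9, Eif2ak2 and Phf11b, among them Eif2ak2, the kinase PKR, at 9.06 against 8.63 FPKM; Isg20 was called lower without allo-labelled replicate 2 (-0.34) and after quantile normalization (-0.43).

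Inhibitors of the pathway went both ways, with 5 higher and 4 lower of 9 measured. Beside Usp18, Socs3 was 1.40-fold, Socs1 1.21-fold, Pias1 1.21-fold and Ptpn6, the phosphatase SHP-1, 1.16-fold higher. Ptpn11, the phosphatase SHP-2, was 1.74-fold lower (26.4 FPKM ± 0.525 against 45.8 ± 1.11, SD, n = 3 each), and Pias3, Ptpn2 and Pias4 were 1.25-fold, 1.13-fold and 1.14-fold lower (limma adjusted p at most 0.0118 for all 9).

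Interferon gamma, the type II interferon that T cells make, ran the other way from the antiviral genes. Ifng was at 43.2 FPKM ± 3.10 in the allo-labelled libraries and 84.8 ± 1.07 in the syn-labelled ones, and its receptor chain Ifngr1 at 105 ± 1.43 against 195 ± 1.92 (SD, n = 3 each; limma adjusted p = 4.71e-06 and 1.25e-07). Ifngr2, the second chain, was at 9.04 FPKM ± 0.460 against 0.464 ± 0.0780 (SD, n = 3 each), 19.5-fold higher, and Jak2 was 1.5-fold higher. Of 19 interferon gamma targets, 15 were higher, 2 (Wars and Gbp3) lower and 2 (Psmb10 and Gbp7) not called, with a median of 0.54. Of all genes tested, 34.7% were called higher and 33.0% lower. Ciita was under 1 FPKM in every syn-labelled library, so it passed the filter on low values only through the other group. Gbp3 was not called without any single library but syn-labelled replicate 1 (limma adjusted p = 0.0779 to 0.115). The smallest p were at Ciita, the class II transactivator (38.7-fold), Cxcl9, a chemokine gene of myeloid cells (22.9-fold), Gbp4 (1.91-fold) and Icam1 (2.60-fold), and Ciita and Cxcl9 are genes of antigen-presenting cells, whose marker sums are given above.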

How the data were processed

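RNA of 6 libraries was sequenced after depletion of ribosomal RNA, per the labels' protocols. The values deposited by the authors are FPKM in 1 table; the unit was read from the values, which would look the same as RPKM. Limma appears in the submitters' processing notes without its use; for aligner, counter and build the sources used here give nothing. The larger group mean of every gene was at least 0.5 FPKM. Values times the union exon length of GENCODE vM21 (GRCm38; 14730 identifiers matched, 20 did not) were whole fragments within 0.1 for 94.3% to 94.6% of values; Mx1 was not whole, so its fragments are not quoted. Genes with at least 1 FPKM in 3 of 6 libraries were fitted as log2(FPKM + 1) with limma 3.58.1 in R 4.3.3 (eBayes with trend), without covariates, after a test on simulated data. Differences are labelled allo-HSCT minus labelled syn-HSCT, and folds are ratios of mean FPKM. Genes named are the 10 antiviral genes, up to 4 per pathway list by smallest p, all of lists of at most 9, those not called or against their list, and 3 nearest profiles each, except an item that is not reported here; Ifit and Ifitm relatives, Cmpk2 and the ratios were chosen after values were seen. The antiviral genes and lists were chosen with earlier results of these data known. Alternatives were leaving out each library, a replicate block, other filters, pseudocount 0.1, quantile and TMM scaling, eBayes without trend, and voom on recovered fragments.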

Additional observations from a re-analysis of the deposited data

How the results depend on the processing

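Each of the 10 antiviral genes kept its direction and its call under every alternative in which it was tested; with a filter at 5 FPKM only 7 were tested, and all 7 were called. Across alternatives the log2 difference ran from 0.70 to 0.85 for Bst2, 0.93 to 1.15 for Isg15 and 2.39 to 5.49 for Ifi44, the highest on recovered fragments. Leaving out 1 library in turn kept all 10 calls. Genes called over the whole table numbered 8390, and 6065 to 9243 across alternatives. Over all genes tested, replicate numbers did not pair the libraries (correlations of deviations of same-numbered libraries 0.0627, 0.122 and -0.083). Among the antiviral genes, Usp18, Isg15 and Bst2 were highest in replicate 1 of both groups, and Mx1 and Rsad2 lowest. Ifi44 was highest in allo-labelled replicate 1 and lowest in syn-labelled replicate 1. With the replicate block 8113 genes and all 10 antiviral genes were called. The block lowered the SE of Isg15 from 0.111 to 0.062 and of Mx1 from 0.0605 to 0.036. It also lowered those of Ifit1, Rsad2, Usp18, Rtp4 and Bst2, and raised those of Mx2, Ifit3 and Ifi44. Among pathway genes, Plac8, Nmi, Gbp3, Xaf1 and Tap1 (each also without 1 library) and Socs1 lost their call under at least 1 alternative; Cmpk2, Isg20, Irf2, Lgals3bp and Phf11b gained one. The 3 genes under 1 FPKM in the syn-labelled libraries are limited by depth. Marker sums without the most abundant gene of each list, added after seeing the data, kept their direction except for NK cells.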

Other observations

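The ratio of Isg15 to Bst2 was 0.349 to 0.445 in the allo-labelled libraries and 0.294 to 0.322 in the syn-labelled ones.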
